A study of Homo sapiens with 72 samples.

Results

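STK19_KO1 and STK19_KO2 are a pair of knockouts of the same gene, STK19, in HEK293 cells, and the results below set one against the other in untreated cells, across all genes. The comparison takes the 3 untreated libraries labelled STK19_KO1 and the 3 labelled STK19_KO2, which is 6 of the 72 libraries of the series. No measured value was used to choose them. STK19_KO1 is an STK19 knockout line harvested at 0 h with no treatment, and STK19_KO2 is a second STK19 knockout line harvested the same way. The parent of both is the Flp-In T-REx form of HEK293, which grew out of human embryonic kidney cultures after adenovirus DNA was introduced, and which carries a site for inserting a transgene. The series also holds a knockout of CSB (CSB_KO) and wild-type cells (WT), and it sequenced polyadenylated RNA from each line untreated, 3 h after ultraviolet (UV) irradiation, and at 4 h and 20 h with the solvent DMSO or with 3 µM VE-821, an inhibitor of the checkpoint kinase ATR (ATRi). Each line has 3 libraries in each of these 6 conditions. The 4 h and 20 h conditions follow UV as well. Their labels do not say whether the times count from UV or from the addition of DMSO or ATRi. The edited sequence, the guide and the way the lines were isolated are not given in the sources used here. Each knockout is 1 line, so whatever sets a line apart and whatever its edit does cannot be told apart within it.

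STK19 encodes a DNA-binding protein that takes part in transcription-coupled repair, the branch of nucleotide excision repair that starts when RNA polymerase II stalls at a lesion. The stalled polymerase is recognised by CSB (the product of ERCC6), CSA (ERCC8), UVSSA and ELOF1, and is then handed to the general repair factors. HEK293 cells are known for an abnormal set of chromosomes that differs between sublines, and their adenovirus proteins bind the tumour suppressors RB and p53. A knockout line grown from a single cell carries whatever that cell carried.

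The 3 STK19_KO1 libraries held 42.2 M, 45.4 M and 73.8 M counts (M, mega) and the 3 STK19_KO2 libraries held 55.0 M, 64.8 M and 85.5 M counts. The range over all 72 libraries was 36.5 M to 212.9 M counts. Mitochondrially encoded genes took 2.89% ± 0.0848 of the counts in STK19_KO1 and 2.88% ± 0.111 in STK19_KO2 (SD, n = 3 each). Libraries of the same line differed by a chi-square of 4.89 to 6.79 per gene, and libraries of different STK19 lines by 53.4 to 78.9, so all were kept as separate libraries. Of 10 genes fixed as markers of HEK293 cells, such as VIM, KRT8 and KRT18, all were measured, and their summed level was 1598 to 1664 CPM (counts of a gene scaled to a common library total) in STK19_KO1 and 1436 to 1522 CPM in STK19_KO2. Summed markers of fibroblasts were at 6.79 to 7.10 CPM in STK19_KO1 and 13.0 to 13.8 CPM in STK19_KO2, with 5 of 10 passing the filter on low counts. Blood markers summed to 9.67 to 10.1 CPM in STK19_KO1 and 8.11 to 10.7 CPM in STK19_KO2, with 6 of 12 passing the filter. Kidney tubule markers summed to 26.0 to 28.6 CPM in STK19_KO1 and 27.3 to 30.6 CPM in STK19_KO2, with 5 of 11 passing. Squamous epithelium markers summed to 204 to 216 CPM in STK19_KO1 and 203 to 208 CPM in STK19_KO2, also with 5 of 11 passing. Any part of such markers in the differences below was not tested. Nothing in the labels says whether the 3 libraries of a line came from separate cultures, so the scatter between libraries may be technical. The p-values here rest on the scatter within all 24 groups of the 72 libraries, not on that of these 6 alone.

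STK19 itself (chr6:31971091-31982821, GRCh38) was not called different between the lines. Its level was 16.8, 17.6 and 18.0 CPM in STK19_KO1 and 18.1, 17.0 and 16.4 CPM in STK19_KO2, beside 20.9, 20.1 and 22.2 CPM in CSB_KO and 17.8, 19.5 and 19.7 CPM in WT. The STK19_KO1 and STK19_KO2 libraries overlap, and the log2 fold change of STK19_KO1 over STK19_KO2 was 0.03 ± 0.07 (SE; adjusted p = 0.795, edgeR's quasi-likelihood test). A count over the whole gene does not see a small insertion or deletion, so it does not check the knockout. ERCC6, the gene targeted in CSB_KO, was at 6.97 ± 0.611 CPM in those cells and at 23.5 ± 0.474 CPM in WT (SD, n = 3 each). In the STK19 lines ERCC6 was at 23.9 ± 0.570 CPM in STK19_KO1 and 25.6 ± 0.295 CPM in STK19_KO2 (SD, n = 3 each; log2 fold change -0.10, adjusted p = 0.322). ERCC8 (-0.17, adjusted p = 0.0827) and UVSSA (0.08, adjusted p = 0.505) were not called different either. ELOF1, a transcription elongation factor, was higher in STK19_KO1, at 74.1 ± 1.77 CPM against 64.4 ± 4.62 CPM in STK19_KO2 (log2 fold change 0.20 ± 0.08, adjusted p = 0.0379), and it was not called in the same direction in any of the 5 other conditions.

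The 2 STK19 lines differed at many genes. Of 15470 genes tested, 5136 (33.2%) had an adjusted p under 0.05, 2913 of them higher in STK19_KO1 (18.8% of genes) and 2223 lower (14.4%). Such genes are named called below, and every fold change is STK19_KO1 over STK19_KO2 unless another pair is named. Most differences were small: the median size over all genes was 0.19 on the log2 scale, and the median signed value was 0.03. A difference of at least 2-fold was called for 640 genes (4.14%), 231 higher (1.49%) and 409 lower (2.64%). The libraries of the lines did not overlap at 8439 genes (54.6%), 4761 higher in STK19_KO1 (30.8%) and 3678 lower (23.8%). The balance of higher and lower calls depends on the scaling: with library totals alone, 1967 genes were higher and 3206 lower, which is 38.0% of calls higher in place of 56.7%. Set against WT, with which both comparisons share the same 3 WT libraries, STK19_KO1 differed at 7540 genes (48.7%) and STK19_KO2 at 7323 (47.3%). Set against CSB_KO, again with shared libraries, STK19_KO1 differed at 6312 genes (40.8%) and STK19_KO2 at 5850 (37.8%).

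Genes in some long stretches of a few chromosomes were called more often than the rest. When tested genes were put in chromosome order and the fold change was smoothed as a running median over 41 neighbours, 10 stretches on 7 chromosomes held a median of at least 0.25 in either direction over at least 15 windows. They contain 1478 genes (9.55% of those tested) and 1076 calls, so that 72.8% of their genes were called, against 29.0% of the 13992 other genes. They hold 20.95% of all calls. Because these untreated values chose the stretches, their size there is a description. The chromosome 21 stretch runs from BACH1 to SUMO3 (chr21:29194071-44818779), with 98 genes at a median log2 fold change of 0.93, or 1.91-fold. Of these 98 genes, 78 were called higher in STK19_KO1. The window leaves out 20 genes at each end, and these had medians of 0.99 and 1.03, so the whole measured chromosome shared the difference: of its 138 tested genes 81.2% were called higher, and 126 had a positive fold change.

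Genes on a large part of chromosome 3 were also higher in STK19_KO1. There the stretch from CPNE9 to ARIH2 (chr3:9703826-48986382) had 227 genes at a median of 0.53, and the stretch from RNF123 to ADAMTS9 (chr3:49689538-64688000) had 126 genes at a median of 0.60. The 20 genes beyond the second stretch had a median of -0.06, and the 20 before the first had one of 0.45, up to the start of the chromosome. Between these stretches, the 20 genes after the first had a median of 0.05 and the 20 before the second 0.08. The end of chromosome 6, from ARHGAP18 to RAMACL (chr6:129576132-166906451), had 135 genes at a median of 0.49, and the 20 genes before it had one of -0.21. STK19 lies on the other arm of chromosome 6, outside this stretch. The end of chromosome 15, from PML to RGMA (chr15:73994673-93089211), had 163 genes at a median of 0.56, against 0.13 for the 20 genes before it.

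Genes on chromosomes 17 and 22 were lower in STK19_KO1. On chromosome 17 the stretch from LYRM9 to FKBP10 (chr17:27878314-41823213) had 169 genes at a median of -0.49 and the stretch from EZH1 to CUEDC1 (chr17:42700275-57955412) had 170 genes at a median of -0.52. The 20 genes on the outer sides had medians of -0.01 and 0.08. Between the stretches, the 20 genes after the first had a median of 0.02 and the 20 before the second -0.01. Chromosome 22 was lower along its measured length: from GSC2 to HDAC10 (chr22:19146993-50251405) 332 genes had a median of -0.40, 218 of them called lower, and 64.8% of the tested genes of the chromosome were called lower. A pair of short stretches of zinc finger genes on chromosome 19, from ZNF93 to ZNF675 and from ZNF615 to ZNF761, had 25 and 33 genes at medians of 0.35 and 0.34. The 16 chromosomes without a stretch had medians between -0.05 and 0.09. With windows of 21 genes there were 16 stretches on 9 chromosomes, which share 1464 of the 1478 genes. With windows of 81 genes there were 7 stretches on 6 chromosomes, which share 1266 genes and leave out chromosome 19.

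**Figure D1:**
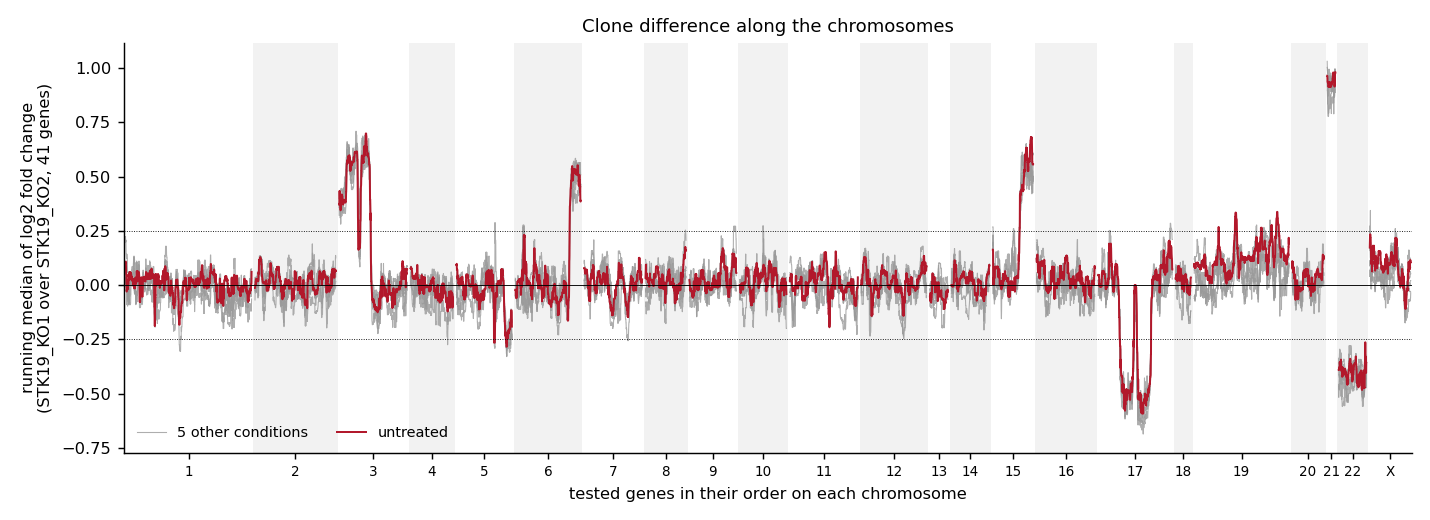
Running median over 41 tested genes of the log2 fold change of STK19_KO1 over STK19_KO2, with genes in their order on chromosomes 1 to 22 and X. The red line is untreated cells, the grey lines are the 5 other conditions, and the dotted lines mark 0.25 and -0.25; chromosomes 3, 6, 15 and 21 hold raised blocks, chromosomes 17 and 22 lowered ones, and the grey lines follow the red one in each.

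The 5 other conditions use 30 other libraries of the same lines and did not choose the stretches. In them the chromosome 21 stretch had medians of 0.84 to 0.93, chromosome 3 of 0.49 to 0.54 and 0.54 to 0.64, chromosome 6 of 0.41 to 0.54, and chromosome 15 of 0.49 to 0.54. Medians on chromosome 17 were -0.51 to -0.49 and -0.60 to -0.53, and on chromosome 22 they were -0.46 to -0.38. The chromosome 19 stretches were at 0.05 to 0.32 and 0.13 to 0.27. The share of genes called inside the stretches was 70.6% at 3 h after UV, 74.6% at 4 h with DMSO, 75.6% at 4 h with ATRi, 70.9% at 20 h with DMSO and 70.7% at 20 h with ATRi. Outside the stretches it was 36.6%, 30.6%, 31.1%, 36.7% and 36.4% in the same conditions.

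The other lines show which of the STK19 lines stands away from the rest. The gap between the STK19 lines chose the stretches, so only the CSB_KO and WT libraries are free of that choice. Levels were measured per library as the median over a stretch's genes of the log2 level, relative to the mean of all 12 untreated libraries. On chromosome 3 STK19_KO1 averaged 0.36 and 0.44, STK19_KO2 -0.07 and -0.10, CSB_KO -0.15 and -0.16, and WT -0.12 and -0.15. All 3 STK19_KO1 libraries lay above all 9 others on both chromosome 3 stretches. On the second chromosome 17 stretch STK19_KO1 averaged -0.33, STK19_KO2 0.13, CSB_KO 0.08 and WT 0.09. On chromosome 22 STK19_KO1 averaged -0.26, STK19_KO2 0.08, CSB_KO 0.06 and WT 0.12. In both cases the STK19_KO1 libraries lay below all 9 others.

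On chromosomes 6, 15 and 21 it was STK19_KO2 that lay below all 9 other libraries. Its level on chromosome 21 averaged -0.68 ± 0.0247 (SD, n = 3), with STK19_KO1 at 0.19 ± 0.0116, CSB_KO at 0.39 ± 0.0155 and WT at 0.11 ± 0.00688. On chromosome 6 STK19_KO1 averaged 0.11, STK19_KO2 -0.36, CSB_KO 0.10 and WT 0.15, and on chromosome 15 STK19_KO1 averaged 0.15, STK19_KO2 -0.31, CSB_KO 0.06 and WT 0.10. The first chromosome 17 stretch divided the lines in pairs, with STK19_KO1 at -0.18 and WT at -0.23 on one side and STK19_KO2 at 0.24 and CSB_KO at 0.21 on the other. On chromosome 19 WT differed from both STK19 lines, at 0.29 and -0.31, with STK19_KO1 at -0.06 and 0.23, STK19_KO2 at -0.31 and -0.07 and CSB_KO at 0.03 and 0.15. DNA was not measured in these samples.

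**Figure D2:**
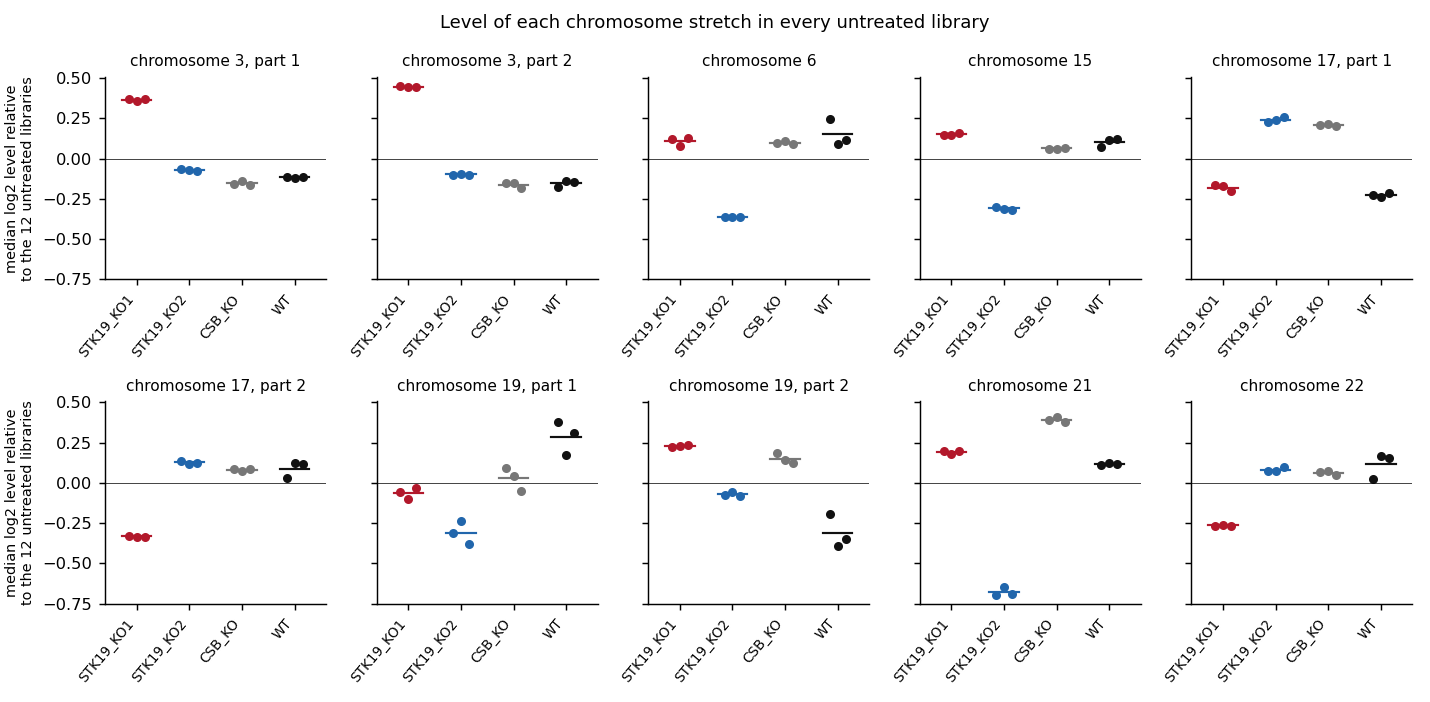
Median log2 level of the genes of each stretch in every untreated library, relative to the mean of the 12 untreated libraries; points are libraries and bars are the means of 3. STK19_KO1 stands apart on chromosome 3, on the second chromosome 17 stretch and on chromosome 22, and STK19_KO2 stands apart on chromosomes 6, 15 and 21.

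Abundant housekeeping genes took their place in these stretches. The ribosomal protein gene RPL15 on chromosome 3 was at 2243, 2258 and 2349 CPM in STK19_KO1 and 1444, 1429 and 1447 CPM in STK19_KO2 (log2 fold change 0.67 ± 0.04, adjusted p = 3.21e-19). RPSA, RPL29 and RPL14, on the same chromosome, had log2 fold changes of 0.61, 0.64 and 0.70. On chromosome 17, RPL27 was at 476, 494 and 509 CPM in STK19_KO1 and 792, 729 and 806 CPM in STK19_KO2 (log2 fold change -0.65, adjusted p = 5.96e-10). RPL23, RPL19 and RPL23A on that chromosome had values of -0.53, -0.46 and -0.34. The libraries of the lines did not overlap at any of these 8 genes, which also held for 54.6% of all genes. Of 47 ribosomal protein genes on the list used, 6 were higher and 3 lower, and 3 were higher without STK19_KO2 replicate 2. Calls took 19.1% of that list, against 33.2% of all genes. The list median was 0.05, and it is -0.03 with library totals alone. Nuclear genes of oxidative phosphorylation had 5 of 48 higher and 6 lower (22.9% called, median -0.02). Of these calls, 2 higher and 4 lower lay outside the stretches. ATP5PF and ATP5PO, subunits of ATP synthase on chromosome 21, had log2 fold changes of 0.88 and 0.86, and ATP5PF lies before the chromosome 21 stretch. ATP5MC1 on chromosome 17 and NDUFA6 on chromosome 22, a subunit each of ATP synthase and complex I, had -0.67 and -0.59.

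Other well known genes lay in the stretches or beside them. SOD1, the cytosolic superoxide dismutase on chromosome 21, averaged 337 CPM in STK19_KO1 and 189 CPM in STK19_KO2 (log2 fold change 0.83 ± 0.08). SON, a splicing cofactor, and GART, an enzyme of purine synthesis, had values of 0.84 and 1.02 on the same chromosome. CHAF1B, a subunit of the histone chaperone CAF-1, was at 1.02 and LSS, lanosterol synthase of the cholesterol pathway, at 1.09. LSS lies past SUMO3, among the genes that the window leaves out at that end of chromosome 21. TKT, transketolase of the pentose phosphate pathway on chromosome 3, was at 571 CPM in STK19_KO1 and 338 CPM in STK19_KO2 (log2 fold change 0.76). KPNB1, the nuclear import receptor importin beta on chromosome 17, was at 878 CPM in STK19_KO1 and 1157 CPM in STK19_KO2 (log2 fold change -0.40), and XRCC6, the end-joining protein Ku70 on chromosome 22, at 644 CPM in STK19_KO1 and 869 CPM in STK19_KO2 (-0.43).

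Beyond the stretches, 4060 genes were called, 2319 higher and 1741 lower, and 510 of them by at least 2-fold. Some of these, and a few inside the stretches, were nearly silent in one line. PTCHD1 (chrX:23334849-23404374), which encodes a patched-domain membrane protein, had 1, 0 and 3 counts in the STK19_KO1 libraries and 365, 473 and 497 counts in the STK19_KO2 libraries. That is 0.0234, 0 and 0.0399 CPM in STK19_KO1 and 6.19, 6.79 and 5.47 CPM in STK19_KO2 (log2 fold change -7.88 ± 0.41, adjusted p = 1.62e-23). WT was between them at 3.95, 3.27 and 4.12 CPM, and CSB_KO was at 0.425, 0.402 and 0.758 CPM. The 10 nearest tested neighbours of PTCHD1 had a median of 0.03, with none called at least 2-fold lower.

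PARVB and TSPO, both on chromosome 22, were the next largest lower differences among genes at 5 CPM or more in the higher line whose libraries did not overlap. PARVB (chr22:43999211-44172939) encodes beta-parvin, an adaptor of integrin adhesions, and was at 0.117, 0.130 and 0.0798 CPM in STK19_KO1 and 8.76, 9.66 and 11.1 CPM in STK19_KO2 (log2 fold change -6.55 ± 0.25, adjusted p = 1.31e-29). TSPO (chr22:43151547-43163242) encodes the translocator protein of the outer mitochondrial membrane, and was at 0.28, 0.173 and 0.226 CPM in STK19_KO1 and 14.1, 15.1 and 14.4 CPM in STK19_KO2 (log2 fold change -6.00 ± 0.27, adjusted p = 1.89e-26). Both were well measured elsewhere, PARVB averaging 10.8 CPM in CSB_KO and 14.7 CPM in WT, and TSPO 10.2 CPM in CSB_KO and 8.99 CPM in WT. Their neighbours were lower too, with medians over the 10 nearest tested genes of -0.59 around PARVB and -0.55 around TSPO, beside -0.40 over the stretch. MPPED1, among the 10 of both, had -1.96, and SCUBE1, beside TSPO, had -1.46.

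In the opposite direction, and with the same limits, the largest difference was at AMOT (chrX:112774503-112840831), which encodes angiomotin, a junction protein that binds YAP in the Hippo pathway. AMOT was at 136, 131 and 134 CPM in STK19_KO1 and 12.7, 11.5 and 11.9 CPM in STK19_KO2, an 11.1-fold difference (log2 fold change 3.47 ± 0.08, adjusted p = 1.05e-41). CSB_KO was at 147, 146 and 149 CPM and WT at 17.6, 17.0 and 17.6 CPM, so STK19_KO1 lay near CSB_KO and STK19_KO2 near WT. The 10 nearest tested neighbours of AMOT had a median of 0.07, but they were not all level. PLS3 was at 527 CPM in STK19_KO1 and 250 CPM in STK19_KO2 (1.07), and AMMECR1 (0.41) and KLHL13 (0.27) were called higher too. CHRDL1 (-3.73) and PAK3 (-1.44), at low levels, were not called.

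The bases before the start of these 3 genes are shown because PARVB and TSPO were nearly silent in STK19_KO1 within the chromosome 22 stretch and AMOT had the largest higher difference at 5 CPM or more. They are the 250 bases upstream of the start in RefSeq, build GRCh38.p14, on the gene's own strand, with each CG pair (CpG, the site of DNA methylation in human cells) in capitals. For PARVB the RefSeq start lies inside the longer gene span given above, so its window does too. The last bases of the TSPO window also run into the TSPO span given above. PARVB is at chr22:44024052-44024301 on the plus strand, TSPO at chr22:43151309-43151558 on the plus strand, and AMOT at chrX:112840832-112841081 on the minus strand.
PARVB: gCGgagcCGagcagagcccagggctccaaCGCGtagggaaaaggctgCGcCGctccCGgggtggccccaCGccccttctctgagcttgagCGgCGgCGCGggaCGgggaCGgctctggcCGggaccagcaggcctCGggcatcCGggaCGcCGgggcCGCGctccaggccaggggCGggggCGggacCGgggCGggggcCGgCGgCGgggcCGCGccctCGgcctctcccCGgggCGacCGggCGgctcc
TSPO: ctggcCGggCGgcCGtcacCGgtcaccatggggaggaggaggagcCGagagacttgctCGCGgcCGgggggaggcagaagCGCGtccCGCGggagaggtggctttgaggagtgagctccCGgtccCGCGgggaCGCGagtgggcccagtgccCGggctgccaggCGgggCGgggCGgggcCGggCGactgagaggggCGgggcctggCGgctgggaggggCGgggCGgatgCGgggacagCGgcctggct
AMOT: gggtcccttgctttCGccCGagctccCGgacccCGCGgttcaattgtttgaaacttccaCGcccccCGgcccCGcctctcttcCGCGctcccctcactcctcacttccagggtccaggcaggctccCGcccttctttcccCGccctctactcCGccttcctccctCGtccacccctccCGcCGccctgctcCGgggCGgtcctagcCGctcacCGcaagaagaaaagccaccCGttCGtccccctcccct

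These windows hold 35 CpG for PARVB, 29 for TSPO and 22 for AMOT, and the number observed over that expected from the base composition was 0.849, 0.839 and 0.924. Over the 12132 tested genes with an entry the median was 20 CpG, at an observed over expected ratio of 0.805. A ratio of at least 0.6 with at least 50% G and C was found in 73.1% of all these windows, in 47.0% of the 164 with an entry among genes at least 2-fold higher in STK19_KO1, and in 57.7% of the 310 among genes at least 2-fold lower. The difference between these shares was not tested. DNA methylation was not measured.

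The other genes among the 12 largest lower differences at 5 CPM or more were of several kinds. LSAMP, an adhesion protein of neurons, had a log2 fold change of -5.73, with 0.125 ± 0.0423 CPM in STK19_KO1 and 7.15 ± 0.0419 CPM in STK19_KO2. PTPRZ1, a receptor tyrosine phosphatase of neural precursors, was at -5.41, and PLA2G4A, the cytosolic phospholipase A2 that releases arachidonic acid, at -5.12. DAB2, a clathrin adaptor, was at 0.233 ± 0.0807 CPM in STK19_KO1 and 8.49 ± 1.19 CPM in STK19_KO2 (-5.12). PXDN, peroxidasin, which crosslinks collagen IV, was at 1.33, 1.23 and 1.22 CPM in STK19_KO1 and 26.0, 24.4 and 28.0 CPM in STK19_KO2 (-4.38 ± 0.11, adjusted p = 3.38e-38), beside 43.2 CPM in CSB_KO and 33.6 CPM in WT. BMP2, a growth factor of the BMP family, was at -3.56, NRIP3 at -3.22, CSRP1, a LIM protein of the cytoskeleton, at -2.91, and TSTD1 at -2.74. In BMP2 it was STK19_KO2 that lay apart, at 5.69 CPM against 0.493 CPM in STK19_KO1, 0.719 CPM in CSB_KO and 1.57 CPM in WT. ZNF22, a zinc finger gene on chromosome 10, had 1, 1 and 0 counts in STK19_KO1 and 64, 62 and 89 counts in STK19_KO2, with at least 344 in CSB_KO and at least 210 in WT. H2AC19 was also near zero in STK19_KO1, but it has near-identical histone copies and had no counts in 1 STK19_KO2 library either, so its value is uncertain.

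Of the 12 largest higher differences, 5 lay on chromosome 21. CBS, cystathionine beta-synthase, which starts transsulfuration of homocysteine, was at 36.2, 39.2 and 43.2 CPM in STK19_KO1 and 9.07, 8.26 and 8.14 CPM in STK19_KO2 (log2 fold change 2.22 ± 0.15, adjusted p = 2.60e-19). COL6A1 and COL18A1, chains of collagens VI and XVIII, were at 1.82 and 1.77, RUNX1, a transcription factor of blood development, at 1.55, and C21orf91 at 1.62. Each was larger than the median of its stretch or chromosome. The others were CYB561, a cytochrome of secretory granules (2.11), MAMDC4 (2.11), MYOM2, a sarcomere protein (1.96), ENPP2, the lysophosphatidic acid producing enzyme autotaxin (1.71), C3orf14 (1.53) and IKZF3, the lymphoid transcription factor Aiolos (1.83). IKZF3 lies in the first chromosome 17 stretch and ran against it: its 10 nearest tested neighbours had a median of -0.53. Abundant genes outside the stretches differed too, such as FLNA, an actin crosslinker, higher at 1159 ± 40.3 CPM in STK19_KO1 against 709 ± 12.8 CPM in STK19_KO2 (0.71), and ZCCHC12, lower at 34.3 ± 1.1 CPM in STK19_KO1 against 117 ± 2.19 CPM in STK19_KO2 (-1.77). All 24 genes of the 2 sets of 12 were called with the same sign in all 5 other conditions.

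**Figure D3:**
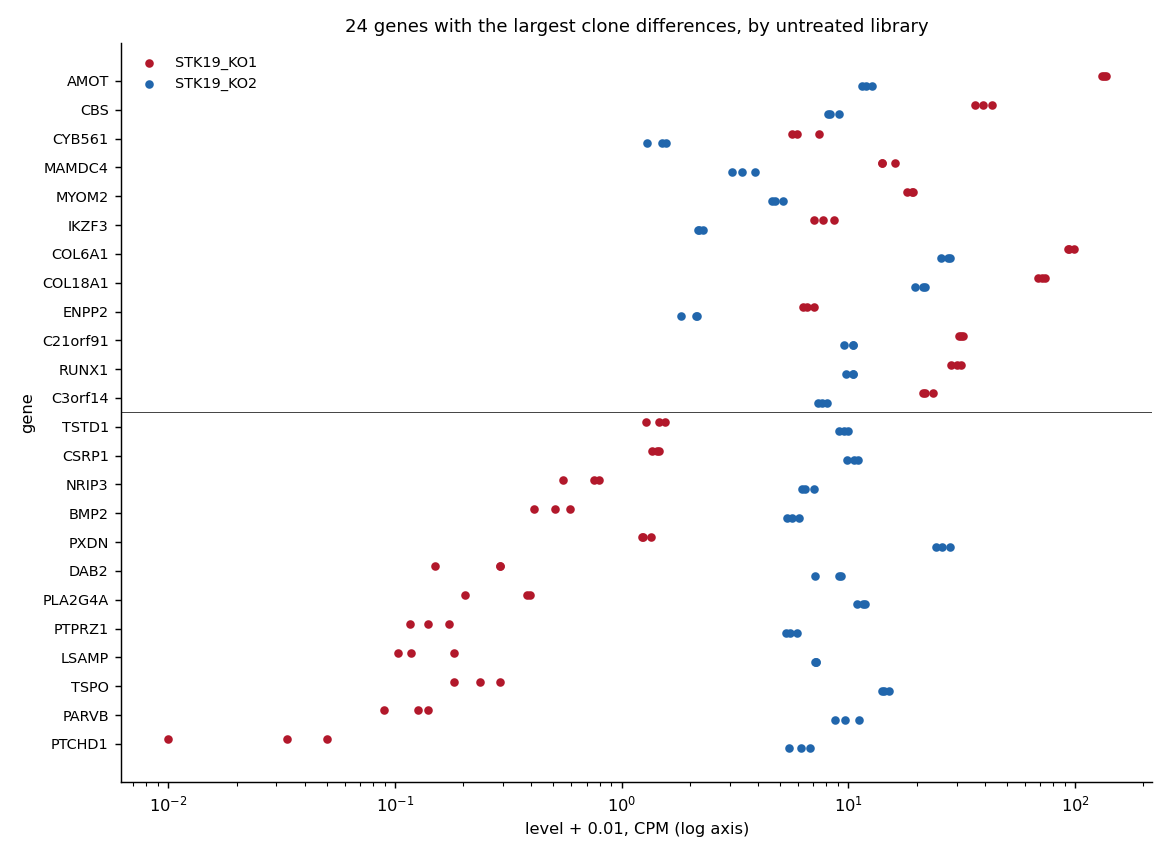
Level of the 12 genes with the largest higher and the 12 with the largest lower difference in STK19_KO1, in each untreated library, as CPM plus 0.01 on a log axis. Red points are STK19_KO1 and blue points STK19_KO2, from AMOT at the top to PTCHD1 at the bottom. Only genes whose libraries do not overlap were eligible, so the 3 red points lie to one side of the 3 blue ones by choice.

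Among genes of nucleotide excision repair, 9 of 30 were higher in STK19_KO1 and 6 lower (median 0.01), against 18.8% and 14.4% of all genes and a median of 0.03. DDB2, which binds UV lesions in chromatin, was at 25.9, 27.5 and 25.4 CPM in STK19_KO1 and 12.4, 12.4 and 12 CPM in STK19_KO2 (log2 fold change 1.09 ± 0.06, adjusted p = 1.16e-22), beside 19.6 CPM in CSB_KO and 22.6 CPM in WT. XPC, its partner in lesion recognition, lies in the chromosome 3 stretch and had 0.55. LIG3, a ligase of the sealing step, and GTF2H3, a subunit of TFIIH, had -0.45 and -0.30. Of 14 genes of the transcription-coupled branch, 4 were higher and 1 lower (median 0.03), and 2 each way without STK19_KO2 replicate 2. The largest was HMGN1, a nucleosome-binding protein on chromosome 21 linked to this branch, with 520, 506 and 521 CPM in STK19_KO1 and 239, 238 and 246 CPM in STK19_KO2 (1.1 ± 0.07, adjusted p = 2.25e-19). CUL4B, a scaffold of the ubiquitin ligase that works with CSA, had 0.33, and RBX1, its RING subunit on chromosome 22, had -0.46. Of 34 genes around STK19 on chromosome 6, 9 were higher and 5 lower (median 0.08), led by AGER (1.37) and PRRT1 (0.76) on the higher side and TNXB (-0.69) and MSH5 (-0.57) on the lower. C4A and C4B, and the heat shock genes HSPA1A and HSPA1B, are near-identical copies in this interval whose counts are uncertain.

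Targets of p53 were mostly higher in STK19_KO1. The list was chosen with earlier results of these data known. Of its 28 genes, 21 were called higher and 1 lower, against 18.8% and 14.4% of all genes. The median log2 fold change of these targets was 0.37. DDB2 (above) and EDA2R, a receptor of the TNF family, led them, EDA2R with 10.3, 9.84 and 10.3 CPM in STK19_KO1 and 4.47, 3.26 and 3.88 CPM in STK19_KO2 (1.39 ± 0.11, adjusted p = 3.83e-16). The libraries of the lines did not overlap at either gene, as at 54.6% of all genes. PHLDA3 (0.97), PLK3 (0.95), FAS (0.67), CCNG1 (0.55), CDKN1A, the p21 inhibitor of the cell cycle (0.44), and BAX, a driver of cell death (0.34), were called as well. MDM2, the ligase that degrades p53, had -0.08 and was not called. Only XPC and AEN of the list lie in stretches, and outside them 19 of 26 were higher and 1 lower (median 0.33). With library totals alone, 18 were higher and 2 lower.

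Genes that answer to the ERK pathway were also mostly higher. Of 24, 14 were called higher and 2 lower (median 0.29), against 18.8% and 14.4% of all genes. The 2 lower calls became 1 when any library but STK19_KO1 replicate 2 was left out. FOSL1, an AP-1 factor, was at 4.39, 4.14 and 4.18 CPM in STK19_KO1 and 1.07, 1.58 and 1.39 CPM in STK19_KO2 (1.64 ± 0.13, adjusted p = 2.74e-16), and it was higher still in WT, at 10.9 CPM. The sprouty and dual specificity phosphatase genes, which restrain the pathway, were called at SPRY1 (0.34), SPRY2 (0.29), SPRY4 (0.45), DUSP4 (0.30) and DUSP5 (0.50), while DUSP6 had 0.01. LIF, a cytokine on chromosome 22, was higher against its stretch (0.80), and MYC was lower, at 110 ± 1.72 CPM in STK19_KO1 against 148 ± 3.27 CPM in STK19_KO2 (-0.44). Of 24 Notch pathway genes 10 were higher and 3 lower (median 0.22). HES7 (1.36), DLL4 (0.78), NOTCH1 (0.63) and HES1 (0.38) were among the higher ones and MFNG (-1.24), HEYL (-0.94) and NOTCH3 (-0.65) were the lower ones. With library totals alone 8 were higher and 4 lower.

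Zinc finger genes of chromosome 19 were higher in STK19_KO1 at 89 of 228 members and lower at 6 (median 0.17). Outside the 2 stretches of that chromosome and all others, 55 of 174 were higher and 4 lower (median 0.12). The 1175 tested genes of chromosome 19 leaned the same way, with 25.7% higher and 5.70% lower (median 0.12). Over all genes the shares were 18.8% and 14.4%, so the lean is not particular to zinc finger genes. With library totals alone 63 of the zinc finger genes were higher and 9 lower, with a median of 0.09. The members differed widely: ZNF43 had 1.03, with 15.8 CPM in STK19_KO1 and 7.78 CPM in STK19_KO2, and ZNF486 had -1.66, with 0.380 CPM in STK19_KO1 and 1.25 CPM in STK19_KO2. Counts of these genes may be shared between similar members. The clustered protocadherins of the alpha group are adhesion proteins from which neurons use different sets. Of 15 members 7 passed the filter, and 5 of these were lower (median -2.22), against 14.4% of all genes. The group summed to 0.84 to 1.17 CPM in STK19_KO1 and 5.27 to 5.63 CPM in STK19_KO2. The filter looked at all libraries, so some members may have passed it only through groups where they were higher. PCDHA10 was at 0.491, 0.453 and 0.346 CPM in STK19_KO1 and 2.27, 2.96 and 2.84 CPM in STK19_KO2 (-2.68 ± 0.19, adjusted p = 1.32e-17), beside 6.08 CPM in CSB_KO and 5.13 CPM in WT. They overlap at a shared end of the cluster, so their counts are not independent. Of 10 beta protocadherins 1 was lower (PCDHB2, -1.27), and of 21 gamma protocadherins 1 was lower, a call lost when any library but STK19_KO2 replicate 2 was left out.

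Matrix genes went both ways, with 16 of 43 higher and 9 lower (median -0.02), against 18.8% and 14.4% of all genes. COL4A5 (0.87) and COL4A6 (0.74), chains of basement membrane collagen, HSPG2, the heparan sulfate proteoglycan perlecan (1.37), and TNC, tenascin (0.62), were higher. COL3A1 (-1.70), COL5A2 (-0.90), LAMA1 (-0.48) and LAMC1 (-0.26), fibrillar collagen and laminin chains, were lower. Integrins and cadherins had 8 of 36 higher and 7 lower (median -0.03), with CELSR3 (1.48, in the chromosome 3 stretch) and CDH7 (1.12) higher and CDH3 (-2.21) and CDH1 (-1.23) lower. They had 4 higher and 11 lower with library totals alone, and the 8 higher calls became 4 without STK19_KO2 replicate 1 or 2 and 5 without STK19_KO1 replicate 1 or STK19_KO2 replicate 3. Of 28 semaphorins and plexins, guidance ligands and their receptors, 10 were higher and 4 lower (median 0.21), but 6 of the higher ones lie in stretches, among them SEMA3B (1.88) and PLXNB1 (1.23), and the 4 lower calls became 2 without STK19_KO1 replicate 1 or 2. Of 22 ephrins and Eph receptors 8 were higher and 6 lower (median 0.15), and 5 were higher without replicate 2 of either line. EPHA5 had 0, 0.108 and 0.0399 CPM in STK19_KO1 and 2.2, 2.4 and 2.4 CPM in STK19_KO2 (-5.53), with 0.253 CPM in CSB_KO and 7.51 CPM in WT.

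Neuronal genes, which HEK293 cells express in part, had 9 of 40 higher and 11 lower (median -0.06), against 18.8% and 14.4% of all genes. NEFL, the light neurofilament, was at 266, 269 and 260 CPM in STK19_KO1 and 151, 153 and 160 CPM in STK19_KO2 (0.78 ± 0.04, adjusted p = 3.36e-24). ISL1, a transcription factor of motor neurons, was nearly silent in STK19_KO1, at 0.0466 ± 0.0466 CPM, against 2.55 ± 0.184 CPM in STK19_KO2, 0.0550 CPM in CSB_KO and 1.64 CPM in WT (-5.52). GAP43, a growth cone protein beside LSAMP on chromosome 3, had -4.80. Interferon-stimulated genes had 4 of 30 higher and 8 lower (median -0.16), at low levels. Scaling by library totals alone gave 1 higher and 10 lower, and the 4 higher calls became 1 without STK19_KO1 replicate 1 or STK19_KO2 replicate 1, and 2 without replicate 3 of either line. IFI44L had no counts in the STK19_KO1 libraries and 0.525, 0.344 and 0.286 CPM in STK19_KO2, IFIH1, the RNA sensor MDA5, had -1.69, and ISG15 was higher (0.96).

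Other signalling lists had calls in both directions, beside 18.8% higher and 14.4% lower over all genes. Wnt pathway genes had 7 of 42 higher and 11 lower (median 0.03), with LGR5 (0.72) and the antagonist SFRP1 (-0.94), and TGF-beta and BMP genes 15 of 50 higher and 8 lower (median near 0), with LTBP4 (0.70) and the BMP antagonist NOG (-1.26). The TGF-beta and BMP counts became 9 each way without STK19_KO2 replicate 1 and with library totals alone. Targets of the stress factor ATF4 had 8 of 26 higher and 5 lower (median 0.05), with SHMT2 (0.66) and the cystine transporter SLC7A11 (-0.48), and the 5 lower calls became 3 without STK19_KO1 replicate 1 or 3 or STK19_KO2 replicate 3. Glutathione and redox genes had 6 of 36 higher and 10 lower (median -0.09), with GPX3 (-1.30) and HMOX1, heme oxygenase on chromosome 22 (-1.15), and the 6 higher calls became 3 without STK19_KO2 replicate 2. Cholesterol synthesis had 4 of 25 each way (median 0.04), with SREBF2, the regulator of the pathway on chromosome 22, at -0.63. Imprinted genes had 4 of 28 higher and 6 lower (median -0.06), with UBE3A at 0.97 and IGF2 at -1.47. Calls took 32% of the cholesterol genes and 35.7% of the imprinted genes, near the 33.2% of all genes.

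Of cell cycle genes, G1/S genes had 6 of 34 higher and 4 lower (median 0.07), against 18.8% and 14.4% of all genes. Outside the stretches 4 of 29 G1/S genes were higher and 1 lower. Mitotic genes had 9 of 39 higher and 1 lower (median 0.08), 4 and 2 with library totals alone, 5 and 1 without STK19_KO2 replicate 2, and 15 and 4 in a fit on the 6 untreated libraries. That fit gave 9 higher and 7 lower G1/S genes. HOX genes had 7 of 38 higher and 8 lower (median 0.03), which became 3 to 4 higher and 7 to 9 lower when any 1 of the 6 libraries was left out, and 10 members, the HOXB cluster among them, lie in stretches. Of the 10 HEK293 markers PAX2 (0.95), NEFL, VIM (0.23) and KRT18 (0.16) were higher and KRT8 (-0.29) was lower. With library totals alone the median over all genes is -0.05, and the medians of the lists for both repair pathways, cholesterol synthesis, ATF4, Wnt, HOX and G1/S genes and HEK293 markers turn negative, so no direction is given for these lists.

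**Figure D4:**
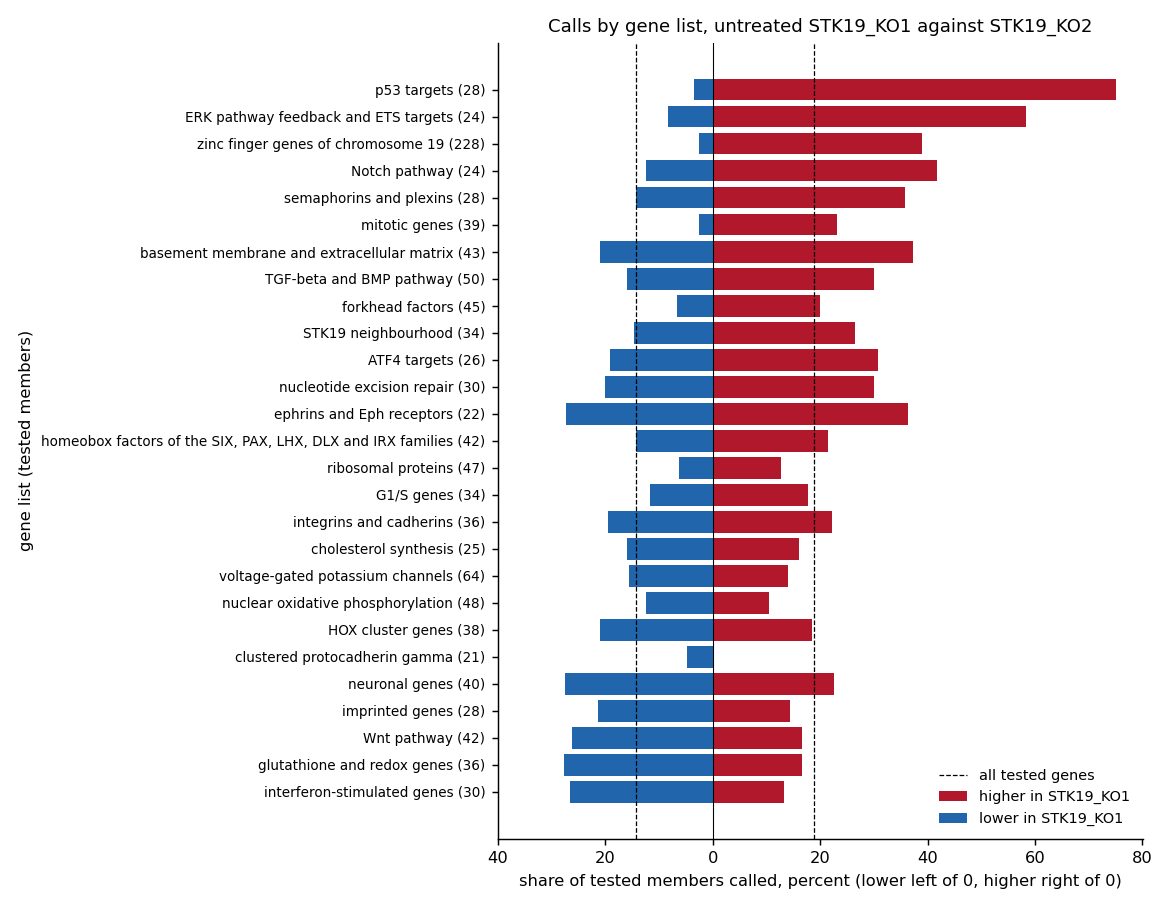
Share of the tested members of each list with at least 20 of them that was called higher (red, right) or lower (blue, left) in untreated STK19_KO1 against STK19_KO2, with the number of tested members in brackets. Dashed lines mark the shares over all genes, 18.8% higher and 14.4% lower; p53 targets reach furthest to the right, with 21 of 28 higher.

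The comparison of the lines could be repeated in the 5 other conditions, which share no library with the untreated one or with each other. There 6161 genes were called at 3 h after UV (39.8%), 5391 at 4 h with DMSO (34.8%), 5468 at 4 h with ATRi (35.3%), 6183 at 20 h with DMSO (40%) and 6134 at 20 h with ATRi (39.7%). Of the 640 genes called at least 2-fold apart in untreated cells, 495, 498, 496, 462 and 426 were called in the same direction in these conditions, and 1, 1, 1, 2 and 1 in the opposite one. In all 5, 358 (55.9%) were called in the same direction, and 552 had the same sign. Of the 164 of these genes that reached 5 CPM in the higher line, 155 (94.5%) were called in the same direction in all 5, among them 96 of 101 higher and 59 of 63 lower genes. On chromosome 21 alone lay 45 of the 101. Over all 15470 genes the Pearson correlation with the untreated log2 fold changes was 0.54 at 3 h, 0.51 and 0.49 at 4 h with DMSO and ATRi, and 0.47 and 0.44 at 20 h with DMSO and ATRi. This is across genes, which are not independent.

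The gene lists varied across conditions. Over all genes 19.3% were called higher and 20.6% lower at 3 h, 16.9% and 18% at 4 h with DMSO, 18% and 17.3% at 4 h with ATRi, 21.3% and 18.7% at 20 h with DMSO, and 20.5% and 19.1% at 20 h with ATRi. Targets of p53 had more higher than lower calls in each condition, with 13 of 28 higher in STK19_KO1 and 4 lower at 3 h, 15 and 4 at 4 h with DMSO, 15 and 3 at 4 h with ATRi, 21 and 2 at 20 h with DMSO, and 19 and 2 at 20 h with ATRi. Genes that answer to the ERK pathway had 14 higher and 2 lower untreated, but 1 higher and 10 lower at 3 h, 3 and 9 at 4 h with DMSO, 5 and 9 at 4 h with ATRi, and 4 and 8 in both 20 h conditions. Zinc finger genes of chromosome 19 had 33 higher and 44 lower at 3 h, and 59 and 20 at 4 h with DMSO. Whether these differences between lines changed with irradiation was not tested. FOSL1, EDA2R, DDB2, HMGN1 and PCDHA10 were called in the same direction in all 5 conditions, FOSL1 with a smaller log2 fold change of 0.32 to 0.88.

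**Figure D5:**
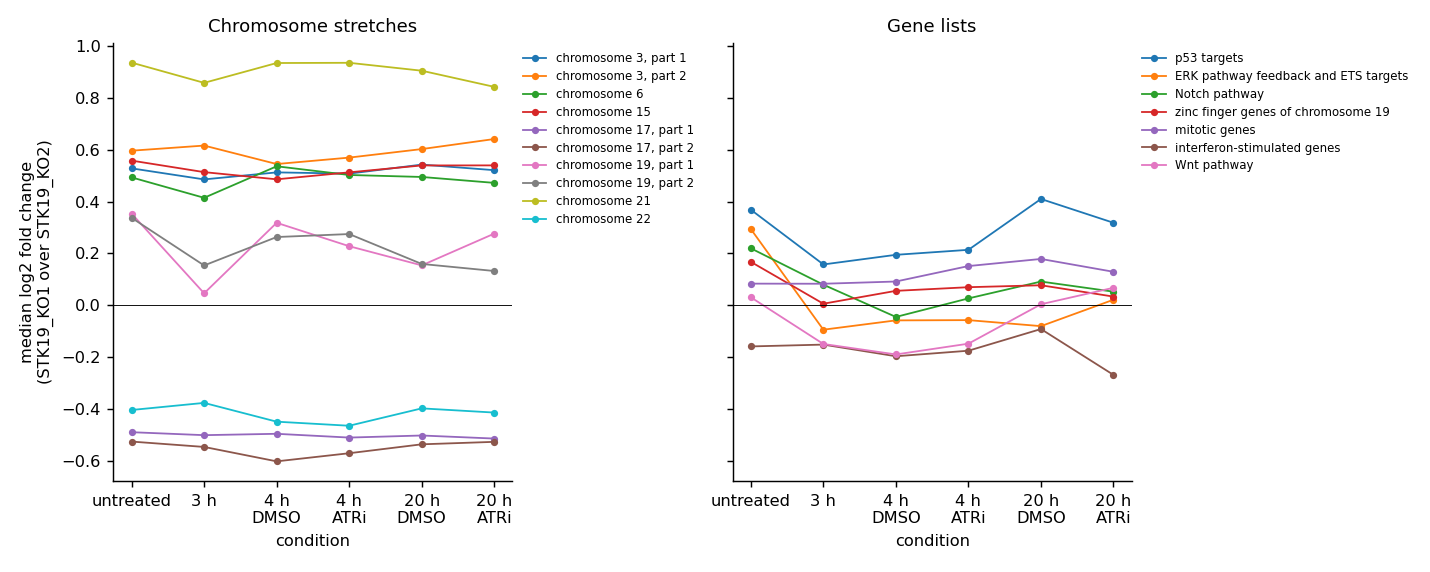
Median log2 fold change of STK19_KO1 over STK19_KO2 in untreated cells and the 5 other conditions, for the chromosome stretches (left) and for 7 gene lists (right). The chromosome 21 stretch stays between 0.84 and 0.93 and chromosome 22 between -0.46 and -0.38, while the ERK list is at 0.29 untreated and near 0 or below in the other conditions.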

How the data were processed

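Polyadenylated RNA was sequenced from 4 HEK293 lines in 6 conditions, with 3 libraries each. Per the submitters' processing notes, the authors used STAR, RSEM and deepTools 3.5.1 with genome build GRCh38, and the deposited table holds expected counts per gene, which are whole numbers. Versions of STAR and RSEM are not given in the sources used here. All 72 libraries were fitted together with edgeR 4.0.16 (R 4.3.3), with TMM scaling and 24 groups, and genes passed filterByExpr (minimum count 10, minimum total 15). This kept 15470 genes, over which Benjamini-Hochberg adjusted p-values from the quasi-likelihood test were taken, with calls at 0.05. Spread over libraries is given as SD, and that of fold changes as SE. The groups, the gene lists and the rules for members were chosen with earlier results of these data known. Genes named are STK19 and its repair partners, the 12 largest differences each way among genes at 5 CPM or more whose libraries do not overlap, the 5 largest each way by CPM difference, up to 2 called members each way per list, genes nearly absent from a line, and the most abundant called genes of each stretch. Other list members were named after their values were seen, as background to the count. Alternatives tried were DESeq2 1.42.0, other scalings, filters and sets of libraries, a replicate block, each library left out, and other window sizes. The calculation was tested on simulated data.

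The replicate numbers do not pair the libraries: deviations from the line means in same-numbered libraries had correlations of 0.0566, -0.0747 and -0.0726.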

Additional observations from a re-analysis of the deposited data

How the results depend on the processing

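The 5136 calls of the untreated comparison became 4284 to 4473 when 1 library was left out, with 2213 to 2556 higher and 1897 to 2131 lower in STK19_KO1. Differences of at least 2-fold became 591 to 616, with 203 to 220 higher and 378 to 410 lower. A fit on the 6 untreated libraries alone gave 7279 calls, 3623 higher in place of 2913 and 3656 lower in place of 2223. Asking for at least 1 CPM in 3 of the 6 libraries left 345 differences of at least 2-fold, 120 higher and 225 lower, from fewer genes tested. With library totals alone, the comparison at 3 h gave 1882 higher and 4835 lower genes, 28.0% of calls higher in place of 48.3%. At 4 h it gave 1933 higher and 3466 lower with DMSO (35.8% in place of 48.5%), and 1946 and 3594 with ATRi (35.1% in place of 51.0%). The cause of these shifts was not tested. DESeq2 shared 4921 calls with edgeR in the same direction. Of 207 named genes called, 178 kept the call in every alternative run that tested them. The other 29 lost it in at least 1 run, 28 of them with a library left out. Genes that the filter of a run removed were not counted for that run. None of 3119 values turned.

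The replicate block, with replicate numbers that do not pair the libraries, gave 5514 calls over all libraries, 3159 higher and 2355 lower, and changed no named gene's call. On the 6 untreated libraries alone it gave 7157 calls, 3567 higher and 3590 lower. With the block 363 of 653 differences of at least 2-fold recurred in all 5 other conditions, in place of 358 of 640.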
